A study of Mus musculus with 2 samples.

Results

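The cells described here are C1q-positive immune cells of the mouse retina that carried high levels of 4 inflammatory messages, Il1b, Tnf, Ccl3 and Ccl4, 7 days after an injection of sodium iodate (NaIO3). They were selected on measured values of the NaIO3 library. Members were cells with at least 3000 unique molecular identifiers (UMIs, 1 per captured RNA molecule) and at most 15% mitochondrial UMIs. C1qa, C1qb and C1qc together had to reach 0.3% of UMIs, and markers of natural killer cells (under 3 UMIs) and of dividing cells (under 5 UMIs) had to be near 0. This gate kept 414 of 9746 NaIO3 barcodes. Of these 414 cells, 83 (20.0%, 95% exact binomial interval 16.3 to 24.2%) were chosen by having at least 0.2% of their UMIs from the 4 genes and are called cytokine-high. They were compared with the 238 cells of the same gate below 0.05%, called comparison cells, while 93 cells lay between. The whole series holds 15988 barcodes.

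The title of the study names the scavenger receptor Cd36, the inflammasome sensor Nlrp3 and interleukin-1 beta in reactive microglia. There was 1 10x single-cell library per group. Mice of the treated group received 20 mg/kg NaIO3 into a vein, and control mice received the same volume of phosphate-buffered saline (PBS), the solvent. Retinas of 6 mice were pooled per group on day 7, so the animals cannot be separated and no test between groups or between cells is possible. No genotype, strain, sex or age is used here. Both libraries carry the label CD11b+ microglia, yet CD11b beads are described for the NaIO3 pellets alone. Intervals below are 95% exact intervals that cover counting error only, and genes are called higher or lower by size alone, at 1.5 times or more.

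Microglia are the resident macrophages of the retina and sit in its synaptic layers. Sodium iodate, an oxidant, kills pigment epithelium and then photoreceptors, and microglia and incoming macrophages gather around the dying cells. Macrophages that sense damage through Toll-like receptors switch on NF-kB and AP-1 factors, and short-lived messages for cytokines and chemokines follow. Il1b encodes the precursor of interleukin-1 beta, which an inflammasome must cleave before release. Tnf encodes tumour necrosis factor, and Ccl3 and Ccl4 encode a pair of related chemokines.

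The 4 genes chose the cells, so their levels are a description. Ccl4 made up most of the signal, with 3295 of the UMIs of the 4 genes in the 83 cells (58.2%), against 1524 for Ccl3 (26.9%), 546 for Il1b (9.64%) and 299 for Tnf (5.28%). Ccl4 was the most abundant of the 4 in 64 cells, Ccl3 in 11 and Il1b in 8, with 1 tie among these, and Tnf led in none. Ccl4 ranged from 0 to 1.11% of a cell's UMIs with a median of 0.249%. Ccl3 ranged from 0 to 0.494% with a median of 0.105%. Il1b ranged from 0 to 0.343% with a median of 0, and Tnf from 0 to 0.201% with a median of 0.00780%. Ccl3 and Ccl4 were found together in 75 of 83 cells, and all 4 genes in 22. In 45 of the 83 cells no Il1b UMI was counted. The summed share ran from 0.205 to 1.70% with a median of 0.438%, and 4 cells reached 1%.

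**Figure D1:**
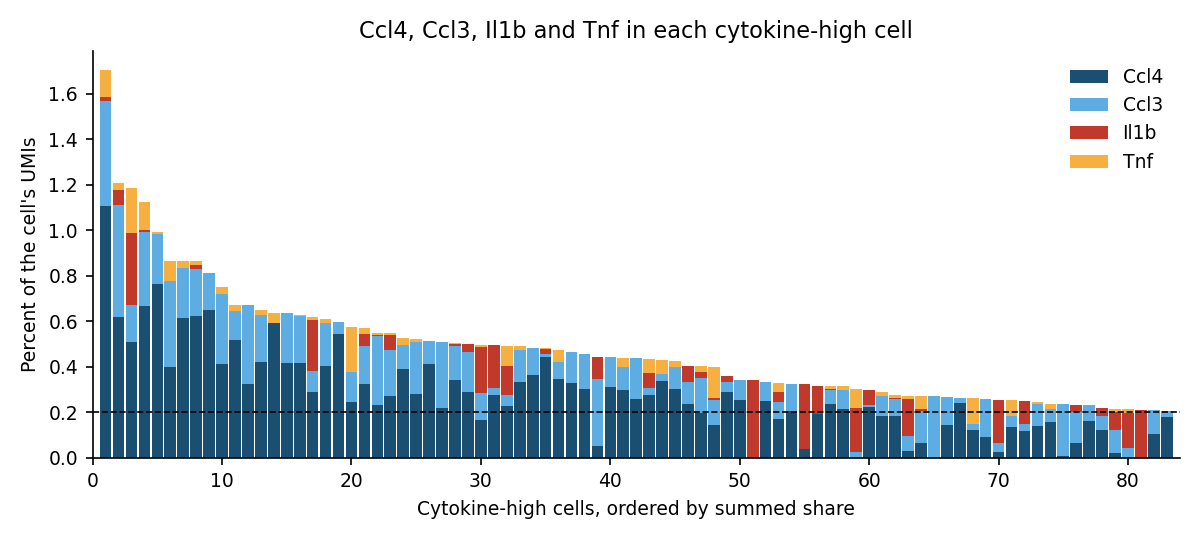
Share of the UMIs of each of the 83 cytokine-high cells (vertical axis, percent) that came from Ccl4, Ccl3, Il1b and Tnf, stacked, with cells ordered by their sum on the horizontal axis and the threshold of 0.2% as a dashed line. Ccl4 and Ccl3 fill most bars, and Il1b leads 8 cells.

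The threshold cut through a continuous range. The 3 cells just inside it had shares of 0.205, 0.210 and 0.210%, and the 3 just outside it 0.195, 0.193 and 0.192%. Summed over cells and expressed as counts per 1000000 UMIs (CPM), Ccl4 was at 2766 CPM in cytokine-high cells, 471 in the cells between and 37.8 in comparison cells. Ccl3 was at 1280, 309 and 51.3 CPM in the same order. Il1b was at 458, 263 and 14.4 CPM, and Tnf at 251, 106 and 26.3 CPM. The level in 2607 rod photoreceptors of the same library, which should lack these messages and show free RNA, was 2.18 CPM for Ccl4, 1.2 for Ccl3, 1.45 for Il1b and 0.505 for Tnf. When every cell was thinned to 3000 UMIs, Ccl4 was seen in 91.6% of cytokine-high cells, 6.30% of comparison cells and 0.537% of rods, and Il1b in 32.5%, 3.36% and 0.230%. Without thinning, Ccl4 was seen in 94.0%, 18.5% and 1.53% and Il1b in 45.8%, 7.14% and 0.652%, at median depths of 12478, 7067.5 and 5486 UMIs.

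In the GENCODE M21 annotation (mm10) the 4 genes are protein-coding. Il1b lies on chromosome 2 at 129364570 to 129371139 on the minus strand, and Tnf on chromosome 17 at 35199381 to 35202007 on the minus strand. Ccl3, on chromosome 11 at 83647844 to 83649355 on the minus strand, has Ccl4 as a neighbour on the plus strand at 83662584 to 83664683. The sequences below are the 250 bases before the RefSeq start (GRCm38.p6) of 3 genes of the rule, shown because they chose the cells, and of Cxcl10, shown because it had the highest ratio among the other genes at 100 CPM or more. Capitals mark matches, on either strand, to the NF-kB consensus, the AP-1 site TGANTCA, the C/EBP site TTGCNNAA or the PU.1 core GAGGAA. All are read 5′ to 3′ on the gene's own strand, which is the minus strand in each case. The windows are chr2:129371140-129371389, chr17:35202008-35202257, chr11:83649379-83649628 and chr5:92348890-92349139.
Il1b: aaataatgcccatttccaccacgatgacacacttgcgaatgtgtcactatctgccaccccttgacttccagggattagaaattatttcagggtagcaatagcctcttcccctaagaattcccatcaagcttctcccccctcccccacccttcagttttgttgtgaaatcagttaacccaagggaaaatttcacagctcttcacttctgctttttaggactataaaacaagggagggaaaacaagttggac
Tnf: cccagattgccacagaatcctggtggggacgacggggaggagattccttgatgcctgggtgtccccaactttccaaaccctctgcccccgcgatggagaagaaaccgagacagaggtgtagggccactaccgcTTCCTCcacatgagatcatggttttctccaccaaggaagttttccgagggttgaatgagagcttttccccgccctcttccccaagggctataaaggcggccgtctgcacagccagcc
Ccl3: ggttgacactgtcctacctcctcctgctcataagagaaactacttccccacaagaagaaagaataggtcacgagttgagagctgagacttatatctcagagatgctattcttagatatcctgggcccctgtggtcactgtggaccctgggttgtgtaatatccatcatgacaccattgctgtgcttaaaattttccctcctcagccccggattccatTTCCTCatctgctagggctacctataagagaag
Cxcl10: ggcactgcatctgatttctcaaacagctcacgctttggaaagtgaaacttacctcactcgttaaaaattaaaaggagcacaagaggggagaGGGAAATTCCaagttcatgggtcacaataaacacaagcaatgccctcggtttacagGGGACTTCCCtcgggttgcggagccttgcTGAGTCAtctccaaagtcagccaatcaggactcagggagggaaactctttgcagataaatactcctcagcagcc

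The Cxcl10 window held 2 NF-kB matches, which begin 159 and 103 bases before the start, and 1 AP-1 match that begins 74 bases before it. None of the matches overlapped. The Tnf and Ccl3 windows each held 1 PU.1 match, 117 and 33 bases before the start, and the Il1b window held none of these letter patterns. Of all 32851 RefSeq windows of the same length, 3.90% held the NF-kB consensus, 6.75% the AP-1 site, 9.56% the C/EBP site and 23.3% the PU.1 core. Among windows of the genes called higher in cytokine-high cells, 53 of 606 (8.75%) held the NF-kB consensus, against 324 of 6920 (4.68%) over all genes measured and 26 of 725 (3.59%) for genes called lower. The AP-1 site was in 7.59%, 4.42% and 4.97% of the same windows. These shares are descriptions, since a gene can have several windows and a match is not a binding site.

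The label microglia held only in part. Of the 83 cytokine-high cells, 73 (88.0%, 79.0 to 94.1%) had a UMI of P2ry12, Tmem119 or Sall1, which mark resident microglia, against 151 of 238 comparison cells (63.4%, 57 to 69.6%). Cytokine-high cells had more UMIs, and at 3000 UMIs per cell Tmem119 was in 41% of cytokine-high and 39.1% of comparison cells, P2ry12 in 15.7 and 9.66% and Sall1 in 2.41 and 0.840%. Mrc1, Pf4, F13a1, Cd163, Lyve1, Cbr2 and Folr2 mark border and tissue macrophages. A UMI of them was found in 54 of 83 cytokine-high (65.1%) and 127 of 238 comparison cells (53.4%). Both kinds were found in 48 and 92 cells, the macrophage genes alone in 6 and 35, and neither kind in 4 and 52. By summed level, 4 of 7 measured border macrophage markers were higher and 0 lower (median log2 ratio 0.72). Of 9 measured resident markers 1 was higher and 1 lower (median 0.28). The purinergic receptor gene P2ry12 was at 59.6 CPM in cytokine-high cells and 49.3 in comparison cells, Tmem119 at 241 and 204, and the macrophage gene Ms4a7 at 827 and 695. Pf4, a chemokine of macrophages and platelets, was at 337 and 190 CPM (1.77 times higher, 1.54 to 2.03). The 7 PBS cells that passed the same gate had P2ry12 at 1396 CPM and no Ms4a7 UMI. Across the whole NaIO3 gate P2ry12 was at 52.7 CPM, 26.5 times lower than in these 7 cells (19.7 to 35.2). Resident microglia and macrophages that entered later cannot be told apart by these markers, so the cells are called cytokine-high cells below.

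Markers of other cell types were summed over each list. The 10 markers of resident microglia came to 4182 CPM in cytokine-high and 3189 CPM in comparison cells, those of border macrophages to 1753 and 1243, and those of monocytes to 1023 and 692. Neutrophil markers came to 68.8 and 354 CPM, a sum led in comparison cells by Lcn2 (14.3 and 322 CPM), while Csf3r was at 52.9 and 29.6 CPM. S100a9, Retnlg, Ly6g, Ngp and Camp were at 0 in both groups, and S100a8 had 0 and 4 UMIs. Dendritic cell markers came to 102 and 73.5 CPM, and the T and NK cell list to 0.840 and 11.9 CPM, with 9 of its 10 markers at 0 in cytokine-high cells. B cell markers came to 188 and 146 CPM, with Cd79a and Ms4a1 at 0 in both. Rod markers were at 1500 CPM in cytokine-high and 4391 CPM in comparison cells. Bipolar (33.6 and 234), astrocyte (18.5 and 223), pericyte (3.36 and 82.5) and endothelial markers (26.9 and 55.8) were also lower in cytokine-high cells, while cone (322 and 414) and amacrine markers (8.40 and 11.5) differed less. Müller glia markers came to 24111 and 24317 CPM, nearly all of it Apoe, which macrophages also express. Pigment epithelium markers came to 53.7 and 2.46 CPM, and 97.8% of the Ttr UMIs behind the first value were in 1 cell. Scrublet marked 0 of the 83 cytokine-high cells and 25 of the 238 comparison cells as doublets. The median doublet scores had the other order, at 0.0853 and 0.0775.

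Depth and RNA content also differed between the groups. Cytokine-high cells had a median of 12478 UMIs (3617 to 34399) and comparison cells 7067.5 (3044 to 59058). Mitochondrial UMIs had medians of 2.19 and 2.59%, and ribosomal protein genes 14.8 and 18.9%. Malat1, a long noncoding RNA kept in the nucleus, had a median of 1.83% of UMIs in cytokine-high and 1.13% in comparison cells. It was below 0.5% in 4 of 83 cytokine-high but 91 of 238 comparison cells. With cells of 3000 to 10000 UMIs alone (24 and 151 cells) 757 of 3102 genes were higher and 695 lower, and with every cell thinned to 3000 UMIs 529 of 2990 were higher and 420 lower. The part of depth and RNA content in the differences was not tested beyond the alternatives stated.

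Of 6764 genes measured (at least 20 CPM in either group and 50 UMIs in all, without the 4 genes of the rule), 647 (9.57%) were higher and 686 (10.1%) lower in cytokine-high cells, with a median log2 ratio of 0.04. The 15 highest ratios at 100 CPM or more included chemokine, interferon, cytokine and immediate early genes. Cxcl10, a chemokine induced by interferon, led with 532 against 37.4 CPM (14.2 times, 11.4 to 18.0). It was present in 17 of 83 and 23 of 238 cells, and 34.1% of its UMIs came from 1 cell, without which the ratio was 9.62. The others were Rsad2 (4.60 times), Mrc1 (4.17), Il1a (3.90), Ch25h (3.51), Ccl2 (3.34), Ifit2 (3.30), Atf3 (3.11), Siglech (2.96), Krr1 (2.92), Mx1 (2.92), Ier3 (2.89), Nfkbiz (2.88), Ccl7 (2.77) and Tlr2 (2.61). These 15 genes stayed at 1.5 times or more under each of the 22 alternatives tried. Not all of these could move a ratio: changes of the CPM filter leave it as it is. TMM scaling, with factors of 1.00002 and 0.99998, barely changes it. With Malat1 at 0.5% or more in both groups (79 and 147 cells), 448 genes were higher and 861 lower.

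Among the other chemokines, 8 of 11 measured were higher and 1 was lower, with a median log2 ratio of 1.08. Ccl2, which draws monocytes through Ccr2, ranged from 0 to 7609 CPM per cytokine-high cell with a median of 751, and from 0 to 6064 with a median of 0 in comparison cells. Summed over cells it was at 1289 and 385 CPM (3.34 times, 3.08 to 3.63). It was found in 62 of 83 and 89 of 238 cells, and the ranges overlapped over most of their span. Ccl7, a close relative of Ccl2, was at 339 and 122 CPM but was seen in 37 of 83 cells. Ccl12 was at 1212 and 574 CPM (2.11 times, 1.96 to 2.27), and Cxcl2, a neutrophil chemokine, at 192 and 89.9 (2.14 times, 1.77 to 2.59). Ccl8 was at 249 and 98.5 CPM (2.53 times), but 44.8% of its UMIs were in 1 cell and the ratio was 1.42 without it. Cxcl16 and Ccl6 were within 1.5 times. Ccl5, a chemokine of T cells and stimulated macrophages, went the other way, at 24.3 against 226 CPM (9.27 times lower, in 6 of 83 and 17 of 238 cells). Without the comparison cell with the most Ccl5 UMIs its ratio was 0.214. The share of cells with Ccl5 was about the same, at 7.23 and 7.14%. Its log2 ratio of -3.21 became -0.10 without cells with 3 UMIs of other immune markers, which ends the call, and -5.11 among cells of 3000 to 10000 UMIs.

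Of 11 other cytokines and growth factors, 5 were higher and none lower (median log2 ratio 0.26). Il1a, which encodes interleukin-1 alpha and sits beside Il1b, was at 102 and 26.3 CPM (3.90 times, 2.86 to 5.36), and 29 of 83 against 26 of 238 cells had it. Pdgfb was at 111 and 50.9 CPM (2.18 times), and Pdgfa at 57.9 and 33.3 (1.74 times). Csf1 reached 3.25 times, or 1.94 without its highest cell. Igf1 reached 1.98 times, but 43.5% of its UMIs were in 1 cell and the ratio was 1.14 without it. The receptor antagonist gene Il1rn was at 21.0 and 23.0 CPM (0.913, 0.546 to 1.49). Il6, Il10, Il12b and Il23a were among 13 genes of this list too low to measure, so a difference in them was not detectable at this depth.

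Receptors and sensors come next. Of 20 cytokine and chemokine receptors measured, 5 were higher and none lower, with a median log2 ratio of 0.50. Ccrl2, a receptor that holds chemerin at the cell surface, was at 61.3 and 18.9 CPM (3.25 times, 2.21 to 4.80). The others lay close to the limit, at 1.59 for Cxcr4, 1.58 for Il10ra, 1.53 for Ifngr2 and 1.5 for Il10rb. Without the cytokine-high cell with most UMIs of the gene, Cxcr4 and Il10rb had ratios of 1.47, which ends both calls, and with Malat1 at 0.5% or more 1 of the 20 was called. The count also moved with depth: 17 of 17 receptors were higher among cells of 3000 to 10000 UMIs (median 1.46) and 12 of 17 when every cell was thinned to 3000 UMIs (median 0.76). Over all genes measured in these settings, 757 of 3102 and 529 of 2990 were higher. Of 19 genes of the Toll-like receptor pathway, 6 were higher and none lower (median 0.45). Tlr2, a receptor of bacterial lipoproteins, was at 144 and 55.0 CPM (2.61 times, 2.07 to 3.30) and in 64 of 83 and 68 of 238 cells. The kinase gene Map3k8 was at 1.96 times, Tlr1 at 1.77, the adaptor gene Myd88 at 1.69 and the co-receptor gene Cd14 at 1.68.

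Of 14 inflammasome and interleukin-1 processing genes, 4 were higher and none lower (median 0.36). Nlrp3 was at 60.4 CPM in cytokine-high, 40.3 in the cells between and 31.2 in comparison cells (1.94 times, 1.38 to 2.71), from 72 and 76 UMIs. A Nlrp3 UMI was found in 39 of 83 and 50 of 238 cells. With every cell thinned to 3000 UMIs, Nlrp3 was in 10.8% (5.08 to 19.6%) and 5.88% (3.25 to 9.67%), and these intervals overlap. Its log2 ratio ranged from 0.71 to 1.87 over the alternatives. Casp4, the sensor protease of the noncanonical inflammasome, was at 41.1 and 14 CPM (2.95 times, 1.86 to 4.71). Nlrp1b reached 1.84 times and Txnip 1.53 times, or 1.47 without its highest cell. Casp1, which encodes the protease that cleaves the precursor of interleukin-1 beta, was at 36.9 and 38.6 CPM (0.957, 0.653 to 1.38). Cd36 was at 138 and 100.2 CPM (1.37 times, 1.12 to 1.68), below the limit of a call, and was found in 37 of 83 and 82 of 238 cells. Thinned to 3000 UMIs, Cd36 was in 22.9 and 21.4% of cells. Its log2 ratio was -0.40 among cells of 3000 to 10000 UMIs and 0.71 without cells with 3 UMIs of other immune markers. Of 18 NF-kB feedback and subunit genes, 8 were higher and none lower (median 0.49). Nfkbiz, a nuclear partner of NF-kB, was at 369 and 128 CPM (2.88 times, 2.48 to 3.34), and the inhibitor gene Nfkbid at 53.7 and 18.9 (2.85 times, 1.92 to 4.25). Tnip3 (3.84 times), Ier3 (2.89 times) and the survival gene Birc3 (2.08 times) were also higher. Nfkbia, which encodes the main inhibitor, was at 216 and 106 CPM (2.04 times, 1.71 to 2.43). The subunit genes Rel, Rela and Relb stayed within 1.5 times.

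Immediate early genes encode transcription factors switched on without new protein synthesis. Of 18 measured, 16 were higher and none lower, with a median log2 ratio of 1.0. Jun ranged from 168 to 5159 CPM per cytokine-high cell with a median of 2086, and every one of the 83 cells had it. In comparison cells it ranged from 0 to 8794 with a median of 151, and 132 of 238 cells had it. The ranges overlapped, and the summed ratio was 2.40 (2.27 to 2.54). Egr2 (5.75 times, 3.92 to 8.61) and Egr3 (5.68 times, 3.92 to 8.36) had the highest ratios at lower levels, and Atf3 (3.11 times), Jun and Ier2 (2.40 times) followed. All immediate early genes together had a median share of 1.32% in cytokine-high cells (0.252 to 3.32%) and 0.144% in comparison cells (0 to 3.50%), and all 83 cells lay above the comparison median. Of 12 RNA decay and MAP kinase phosphatase genes, which shorten such responses, 5 were higher and 1 lower (median 0.25). Zfp36, whose protein destabilises Tnf messages, was in 83 of 83 and 104 of 238 cells, at 1095 and 594 CPM (1.84 times, 1.71 to 1.99). Zc3h12a was at 2.54 times, Socs3 at 2.34 and Dusp1 at 1.81, and Dusp5 was 4.12 times lower on 7 and 59 UMIs.

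This difference moved with Malat1. Among comparison cells with Malat1 below 0.5%, 20 of 91 had a Jun UMI, 5 had a Zfp36 UMI, and the median immediate early share was 0.0236%. Among the 147 comparison cells with more Malat1, 112 had Jun, 99 had Zfp36 and the median was 0.532%. The 79 cytokine-high cells with that much Malat1 had a median of 1.32%, so the distance between the medians was smaller but remained. In these cells 13 of 18 immediate early genes were higher, with a median log2 ratio of 0.79, and of 12 RNA decay genes 4 were higher and 2 lower. Comparison cells with little Malat1 were also shallower, with a median of 4231 UMIs. In the 7 PBS cells Jun was at 2626 CPM and Egr1 at 1301, against 1389 and 987 over the NaIO3 gate. The ratios of NaIO3 over PBS were 0.529 (0.439 to 0.644) and 0.759 (0.582 to 1.01). The PBS values rest on 111 and 55 UMIs, each from 5 of the 7 cells. The beads named for the NaIO3 library alone cannot be told apart from the treatment.

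**Figure D2:**
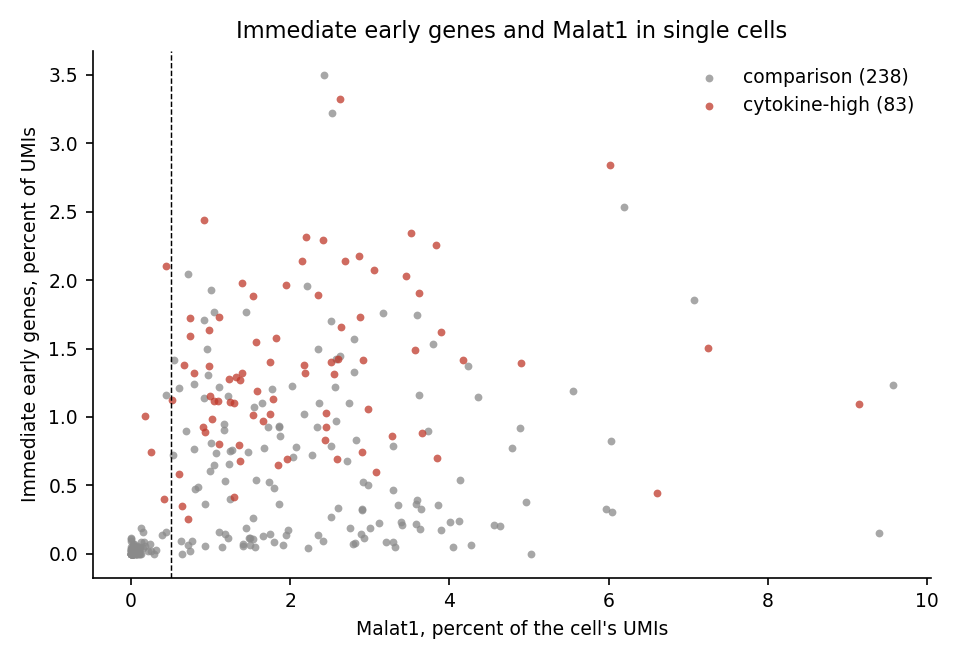
Summed share of the immediate early genes (vertical axis, percent of UMIs) against the share of Malat1 (horizontal axis, percent of UMIs) in each of the 83 cytokine-high and 238 comparison cells, with a dashed line at 0.5% Malat1. The 91 comparison cells left of the line have a median of 0.0236% and 1 cell at 1.16%, and those right of it range from 0 to 3.50%.

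Interferon response genes were higher in 11 of 21 and lower in none (median log2 ratio 0.63). Rsad2, which encodes the antiviral protein viperin, was at 319 and 69.4 CPM (4.60 times), with 30.0% of its UMIs in 1 cell and a ratio of 3.28 without it. Ifit2 was at 194 and 58.7 CPM (3.30 times, 2.67 to 4.10), Mx1 at 107 and 36.5 (2.92 times), Usp18 at 169 and 66.5 (2.54 times) and Ifit3 at 220 and 105.5 (2.08 times). By cell the difference was small: the summed list had a median of 0.629% of UMIs in cytokine-high and 0.569% in comparison cells, and 49 of 83 lay above the comparison median. With cytokine-high cells taken from 0.1%, 6 of the 21 genes were higher. Without cells with 3 UMIs of other immune markers, which leaves 14 cytokine-high cells, 1 of 12 was higher and 1 lower (median 0.12). Of all 1996 genes measured there, 451 were higher and 473 lower.

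Of the MHC class II genes, whose products show antigen to T helper cells, 7 of 9 were higher and none lower (median log2 ratio 0.90). H2-Ab1 was at 2323 and 1165 CPM (1.99 times, 1.89 to 2.10), H2-Aa at 2177 and 1165 (1.87 times, 1.77 to 1.97), and Ciita, which encodes the activator of these genes, at 63.8 and 25 (2.55 times, 1.80 to 3.63). The cell medians for H2-Aa ran the other way, at 109.7 in cytokine-high and 166 CPM in comparison cells, and 45 of 83 and 136 of 238 cells had a UMI. With the C1q threshold raised to 0.6%, 3 of 7 measured genes were higher.

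Among homeostatic microglia genes 3 of 15 were higher and 1 lower (median 0.43). Siglech, a lectin of resident microglia, was at 106 and 35.7 CPM (2.96 times, 2.24 to 3.94) but was seen in 24 of 83 and 36 of 238 cells. Selplg was at 1.62 times, while Cx3cr1 (1.16 times) stayed under the limit. Without cells with 3 UMIs of other immune markers the log2 ratio of Selplg was 0.083. Bin1 had a log2 ratio of 0.63, or -0.92 among cells of 3000 to 10000 UMIs. The lower gene was Sparc, at -0.68, or 0.58 with cells thinned to 3000 UMIs. Of 20 genes of the disease-associated microglia state, which appears around dying neurons and plaques, 2 were higher and 3 lower (median 0.06). Over all 6764 genes measured, 9.57% were higher and 10.1% lower. Apoe was at 23312 and 22805 CPM (1.02 times, 1.01 to 1.04), Trem2 at 578 and 568, and Tyrobp at 2547 and 2528. The 3 lower genes were Gpnmb, Fabp5 and Spp1. Gpnmb, a glycoprotein of lipid-laden macrophages, was at 92.4 and 672 CPM (7.28 times lower, 6.00 to 8.91), yet 15 of 83 and 43 of 238 cells had it, 18.1% of each. Per cell it ranged from 0 to 2381 CPM in cytokine-high and from 0 to 14062 in comparison cells, with a median of 0 in both. Fabp5, a fatty acid carrier, was at 130.1 and 725 CPM (5.57 times lower, 4.72 to 6.60) and in 23 of 83 and 77 of 238 cells. Spp1, which encodes osteopontin, was at 835 and 1809 CPM (2.17 times lower), a ratio of 0.462 that was 0.690 without the comparison cell with most Spp1, which ends the call.

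The counts of the next lists stand beside 9.57% higher and 10.1% lower over all genes measured. Lipid uptake and droplet genes were lower in 3 of 16 (Vldlr, Fabp5 and Acsl3) and higher in none (median -0.05). The 59.6% of Acsl3 UMIs in cytokine-high cells that came from 1 cell, and the high level of Vldlr in rods (314 CPM), stand beside these, and without its highest comparison cell Acsl3 had a ratio of 0.757, which ends its call. Among cells of 3000 to 10000 UMIs 4 of 12 were higher and 2 lower (median 0.39), against 757 higher and 695 lower of 3102 genes. Without cells with other immune markers 7 of 10 were higher and 1 lower (median 1.08), against 451 and 473 of 1996. Of 10 cholesterol export genes 2 were higher (median 0.18), and 6 of 7 among cells of 3000 to 10000 UMIs. Ch25h, whose product makes 25-hydroxycholesterol, was at 235 and 66.9 CPM (3.51 times, 2.89 to 4.29). Apoc1 reached 1.79 times, or 0.872 without its highest cell. None of 21 lysosomal hydrolase genes was called (median 0.16). Among cells of 3000 to 10000 UMIs 7 of 20 were higher, against 757 of 3102 over all genes measured there. When thinned, 3 of 20 were higher, against 529 of 2990. Without cells with other immune markers 8 of 19 were higher, against 451 of 1996. Complement genes were higher in 3 of 14 and lower in 2 (median 0.27), with C3, a central complement component, 9.13 times lower on 3 and 56 UMIs. Of 6 alternative activation genes, Mrc1, the mannose receptor, was 4.17 times higher (128 and 30.8 CPM, 23 of 83 and 29 of 238 cells), and Arg1 and Ccl17 were 3.70 and 7.99 times lower on few cells (7 of 83 and 16 of 238, 2 of 83 and 3 of 238). Of 13 adhesion, migration and matrix genes 6 were higher and 2 lower (median 0.14), and 3 were higher and 2 lower with Malat1 at 0.5% or more. The costimulatory gene Cd86 was at 115 and 54.2 CPM (2.12 times, 1.66 to 2.72), Plau at 1.99 times and Cd83 at 1.82 times.

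Metabolic lists had no higher member in the comparison of all cells, where 9.57% of all genes measured were higher and 10.1% lower. Glycolysis and hypoxia genes were lower in 3 of 18 (Hk1, Tpi1 and Hif1a) with a median of -0.28, and oxidative stress and iron genes in 3 of 18 (Txnrd1, Txn1 and Gpx4) with a median of -0.26. Among cells of 3000 to 10000 UMIs 8 of 11 glycolysis and hypoxia genes were lower (median -1.12), and of 14 oxidative stress and iron genes 3 were higher and 5 lower. Of all 3102 genes measured in these cells, 757 were higher and 695 lower. Without 1 comparison cell each, the ratios of Txnrd1 and Txn1 were 0.706 and 0.692, which ends both calls. In rods Hk1 was at 706, Hif1a at 772 and Gpx4 at 1692 CPM, and rod markers were higher in comparison cells as given above. With rod markers under 0.2%, 1 of 16 glycolysis and hypoxia genes was lower (median -0.20). Of 18 oxidative stress and iron genes 2 were lower there (median -0.32), against 339 of 6254 over all genes. Hk1 had a log2 ratio of -0.61 in that setting. The part of rod RNA in these differences was not tested. Cell cycle genes were lower in 1 of 7 (Top2a, one of the gate's own genes, median -0.36), and heat shock genes higher in 4 of 13 (median 0.24), among them Hspa1a at 2.47 times (2.05 to 2.98) and Dnajb1 at 1.90 times. With Malat1 at 0.5% or more 2 of the 13 heat shock genes were higher, and among cells of 3000 to 10000 UMIs 1 of 8 was higher and 3 lower.

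Several of the lowest genes belong to glia and photoreceptors. Igfbp5 (28.2 times lower), Gfap (26.1), Serpina3n (23.1), Lcn2 (22.5), Gng13 (10.2), Cp (4.80), Clu (4.18), Gpx3 (4.11) and Cnga1 (4.07) completed the 12 lowest genes beside Ccl5, Gpnmb and Fabp5. Gfap, an intermediate filament of astrocytes and reactive Müller glia, had a UMI in 8 of 83 and 13 of 238 cells, and Clu and Cnga1 were at 2479.9 and 1447 CPM in rods. Larger shares of cytokine-high than comparison cells also had Igfbp5 (3.61 and 2.10%), Serpina3n (10.8 and 7.14%) and Lcn2 (13.3 and 11.3%). The same held for Cp (34.9 and 19.7%), Clu (33.7 and 31.5%) and Gpx3 (38.6 and 23.1%). Gng13 (9.64 and 10.1%) and Cnga1 (18.1 and 29.4%) went the other way. Cytokine-high cells were deeper, and with cells thinned to equal depth only Lcn2, Cp and Gpx3 kept the larger share. Without the doublets marked by scrublet 443 genes were lower, and with rod markers under 0.2% in both groups (73 and 170 cells) 339 were, against 653 higher. For Gpx3 the ratio of 0.244 became 0.987 without 1 comparison cell.

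**Figure D3:**
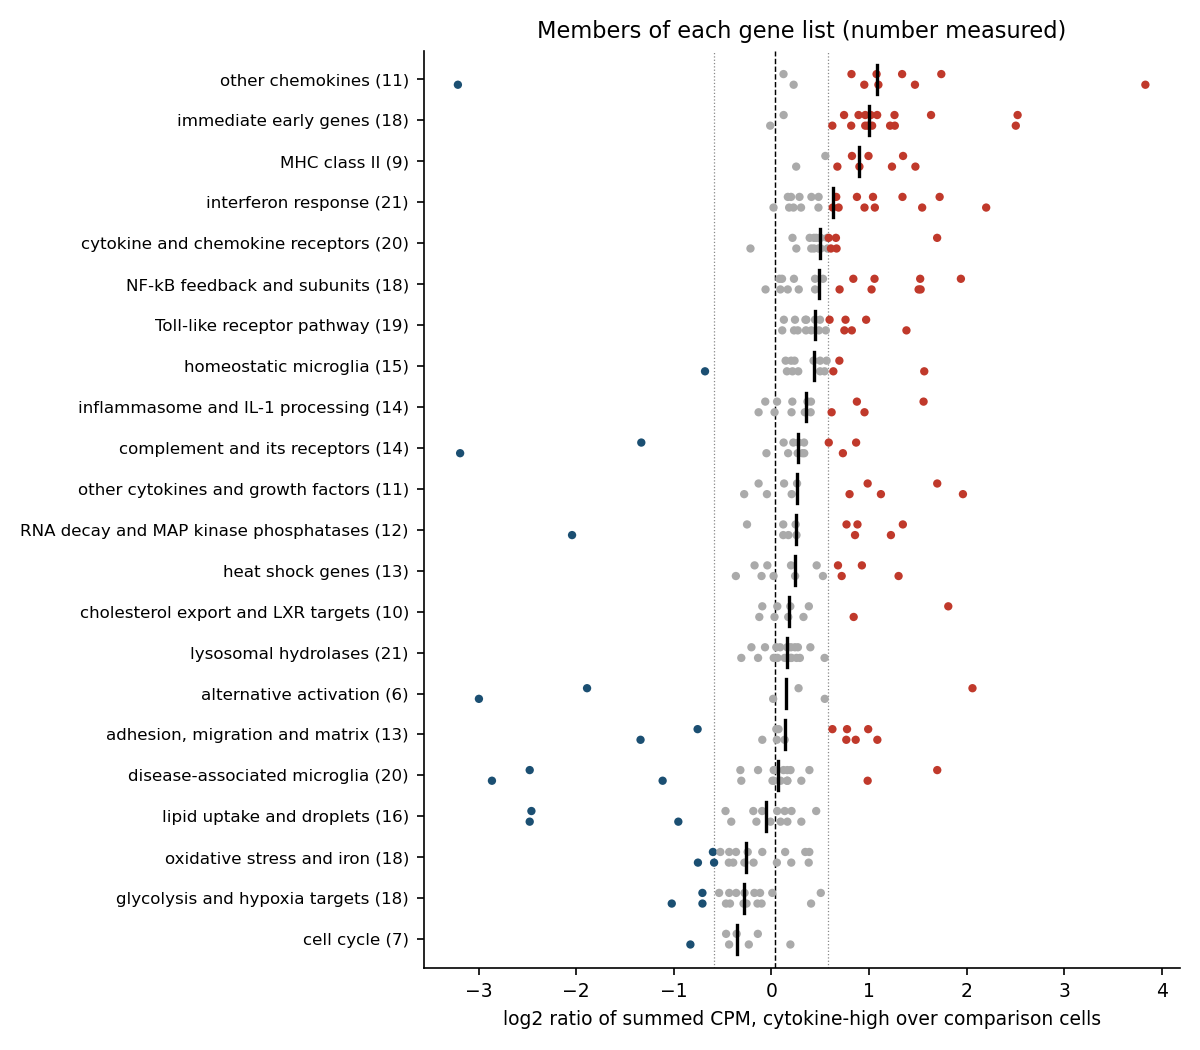
Log2 ratio of summed CPM in cytokine-high over comparison cells (horizontal axis) for each measured member of the 22 gene lists (rows, ordered by median, with the number measured). Red points are at least 1.5 times higher and blue points at least 1.5 times lower, black bars are list medians, and the dashed line is the median of all measured genes at 0.04. Other chemokines (1.08) and immediate early genes (1.0) have the highest medians.

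Across the whole gate the cells were also put in 6 steps of the 4-gene share: below 0.05% (238 cells), 0.05 to 0.1% (42), 0.1 to 0.2% (51), 0.2 to 0.5% (54), 0.5 to 1% (25) and 1% or more (4 cells, too few to read closely). Ccl2 was higher at each step, at 385, 519, 931, 1123, 1394 and 3019 CPM. Jun, at 920, 1246, 1699, 2021, 2446 and 3348 CPM, and Atf3, at 176, 252, 396, 490, 635 and 774 CPM, had the same order. The difference in these genes therefore did not begin at the threshold. Gpnmb went the other way, but not in even steps: it was at 672, 1108 and 666 CPM in the 3 steps below the threshold and at 78.9, 134 and 0 CPM above it. Spp1 was at 1809, 2031 and 4031 CPM below it and 723, 1184 and 38.7 above. Cxcl10 followed no order, at 37.4, 17.4, 36.5, 688, 21.8 and 1819 CPM, as a few cells held most of its UMIs.

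**Figure D4:**
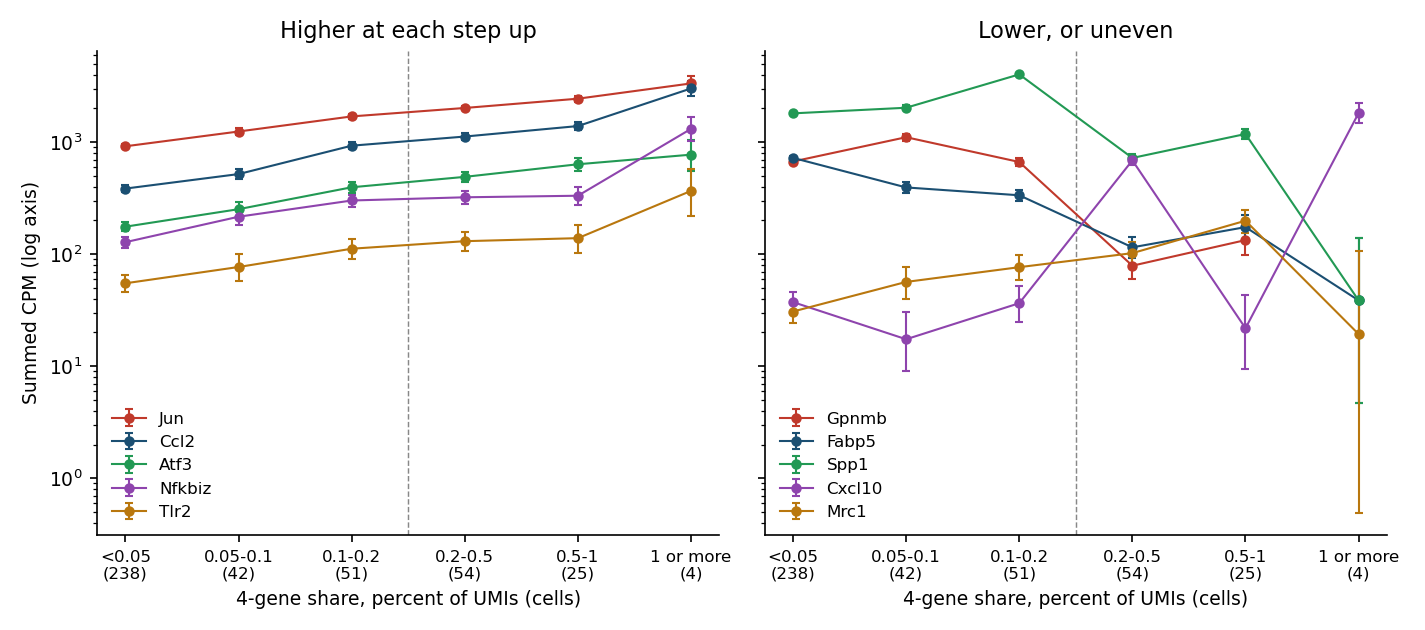
Summed CPM (vertical axis, log scale) of 10 genes in the 6 steps of the 4-gene share (horizontal axis, percent of UMIs, cells in brackets), with exact 95% Poisson intervals as bars and the threshold of 0.2% as a dashed line. The left panel has genes that were higher at each step, the right panel genes that were lower above the threshold or uneven. Gpnmb at 0 in the last step is not drawn.

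The cytokine-high cells differed among themselves in the part taken by Il1b. In 7 cells Il1b made up at least 50% of the UMIs of the 4 genes, in 16 cells 10% up to 50%, and in 60 cells under 10%. The 7 Il1b-led cells, with a median of 15436 UMIs, were set beside the 60 Il1b-poor cells, with a median of 12499. H2-Aa, H2-Ab1, H2-Eb1 and Cd74 together came to 26334 CPM in Il1b-led and 8448 in Il1b-poor cells. Per cell their share of UMIs was 4.81, 4.68, 4.53, 3.01, 0.842, 0.260 and 0.0365% in the 7 cells, so 4 of them were high and 3 were not. In Il1b-poor cells it ranged from 0 to 69460 CPM, with a median of 907 CPM against 30091 in Il1b-led cells, and the ranges overlapped. The 7 Il1b-led cells held 2600 of the 13048 UMIs of these 4 genes in all cytokine-high cells. H2-Aa was at 5915 and 1623 CPM (3.64 times, 3.30 to 4.02) and in 6 of 7 and 29 of 60 cells. Dendritic cell markers came to 456 and 49.1 CPM, and 3 cells of each subgroup had 3 or more UMIs of them. H2-Oa was in 3 of 7 and 4 of 60 cells, while Itgae was in 1 of the 7. Resident microglia markers came to 2735 and 4217 CPM.

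Jun was at 2117 CPM in Il1b-led and 2209 in Il1b-poor cells (0.958, 0.827 to 1.11), or 0.739 without the Il1b-led cell with most of it. Ccl2 was at 1246 and 1269 CPM, but 78.9% of its UMIs in the Il1b-led cells were in 1 cell, and without that cell it was at 327 CPM (0.258). Cxcl10 was at 10.1 and 685 CPM, from 1 UMI and 599 UMIs in 11 cells. Ccl8 was at 40.5 and 335 CPM and Spp1 at 213 and 1078. With 7 cells of 1 library these are values of those cells.

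**Figure D5:**
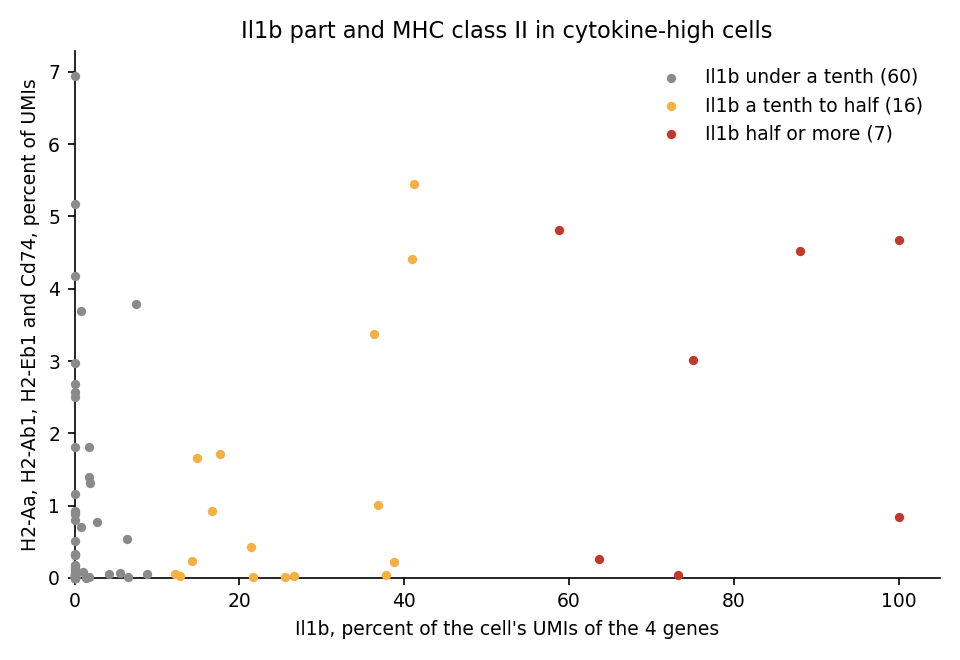
Share of UMIs from H2-Aa, H2-Ab1, H2-Eb1 and Cd74 (vertical axis, percent) against the part of Il1b among the UMIs of the 4 genes (horizontal axis, percent) in each of the 83 cytokine-high cells, coloured by subgroup. Of the 7 cells at 50% or more, 4 lie at 3.01% or above.

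The same genes were not limited to the gate. Outside it, 95 further cells of the NaIO3 library with at least 3000 UMIs and at most 15% mitochondrial UMIs had 0.2% or more from the 4 genes. In 62 of them the cell cycle sum was too high for the gate, and these again were led by Ccl4, at 2239 CPM, with Il1b at 393. The 10 cells over the NK limit had Ccl4 at 1353 CPM. In contrast, the 23 cells below the C1q limit were led by Il1b, at 2572 CPM, with Ccl4 at 382.

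In the PBS library 7 of 6242 barcodes passed the gate and 0 were cytokine-high, which allows a share of up to 42.9% (3 counts of 7, the limit used for a count of 0, not an exact interval). Their 4-gene shares were 0.111, 0.111 and 0.0166% in 3 cells and 0 in the other 4, and rod markers were at 22638 CPM in these 7 cells. Il1b was at 47.3 CPM in the PBS gate and 191 in the NaIO3 gate as a whole (4.04 times higher, 1.11 to 33.4), and Ccl4 at 47.3 and 796 (16.8 times, 4.65 to 139). Ccl3 was at 308 and 411 CPM (1.34 times, 0.780 to 2.52), and Tnf at 71.0 and 102 (1.44 times, 0.488 to 6.98). Each PBS value of Il1b, Tnf, Ccl3 and Ccl4 rests on 2 to 13 UMIs from 7 cells, and the beads named for 1 library only cannot be told apart from the treatment. The 24 barcodes shared by the libraries included none of the cytokine-high cells.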

How the data were processed

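The values are whole UMI counts of 31053 genes in each barcode, as deposited, made by the authors with Cell Ranger 3.0.2 per the file headers and the mm10 build per the submitters' processing notes. The annotation release is not stated in them. Totals were 26605477 UMIs in the PBS and 75981079 in the NaIO3 library, and groups follow the treatment label.

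Counts were summed over the cells of each group and divided by the group's total (1191087 UMIs in cytokine-high and 2436010 in comparison cells). Ratios have exact conditional binomial intervals, and a count of 0 was set at 3 counts over the group. No p-value was computed, since both groups of cells come from 1 library and its cells are not replicates. Calls need 1.5 times, 20 CPM in either group and 50 UMIs. Named genes were the 4 of the rule, Cd36 and Nlrp3, the 15 highest and 12 lowest ratios at 100 CPM or more, up to 5 members per list and up to 3 against its direction, and the most abundant marker of each cell type. Further list members were named after their values were seen. Members and the 22 gene lists were chosen with earlier results of these data known. Rods, used as the level of free RNA, had at least 2% rod markers and under 0.05% C1q. Doublets were called with scrublet at an expected rate of 6% (180 of 9441 cells, 1.91%) and kept in the main comparison. The ratio script was tested on simulated data. Python 3.11.15, scipy 1.17.1, scanpy 1.11.5, R 4.3.3 and edgeR 4.0.16 (for TMM factors alone) were used. Promoter windows are from RefSeq (GRCm38.p6). Other scalings, depths, thresholds and cell filters were tried as alternatives.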

Additional observations from a re-analysis of the deposited data

How the results depend on the processing

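The counts of 647 higher and 686 lower genes stayed within 1.5 times under both other scalings and most cell filters. Similar counts did not always mean the same genes. Between 3000 and 10000 UMIs per cell, 165 of 757 higher and 232 of 695 lower genes had the same call in the main comparison. When thinned, 186 of 529 higher and 169 of 420 lower genes did. Fewer genes were measured in these settings, 3102 and 2990 against 6764. With Malat1 at 0.5% or more, 413 of 448 higher and 640 of 861 lower genes were shared. Higher genes numbered 1319 with a mean of per-cell CPM and 308 at 50 CPM. Lower genes numbered 420 when thinned, 443 without doublets, 390 at a C1q sum of 0.6%, 233 at 50 CPM and 339 with rod markers under 0.2%. Higher genes were 48.5% of those called, but 61.5% with per-cell CPM, 58.9% without doublets, 60.8% at a C1q sum of 0.6%, 65.8% with low rod RNA and 34.2% with Malat1 at 0.5% or more. Cytokine-high cells numbered 134 from 0.1%, 48 from 0.4% and 14 without cells with 3 UMIs of other immune markers, as 67 of the 83 had 3 or more UMIs of monocyte markers. The filters on rod RNA and Malat1 and on single cells were chosen after seeing the data. The causes were not tested. Of 103 named genes that were called, 52 stayed past 1.5 times in every alternative that gave a value and 51 did not, and 24 turned direction in at least 1. Alternatives that change only the CPM filter cannot move a ratio and add nothing to this count. Between 3000 and 10000 UMIs per cell, log2 ratios that turned were Gfap 1.37, Lcn2 0.41, Gpx3 0.95, Ccl8 -1.43, Igf1 -0.29, Bin1 -0.92, Spp1 0.038, H2-DMb2 -0.063, Vcam1 1.37, Fn1 -2.53 and Flt1 0.34. Without cells with 3 UMIs of other immune markers, log2 ratios that turned were Lcn2 0.69, Cp 2.01, Clu 0.95, Gpx3 0.43, Ccl8 -0.34, Csf1 -0.16, Bin1 -0.044, Apoc1 -2.16, H2-DMb2 -0.89, Txnrd1 0.28, Vcam1 1.43 and Fn1 -1.16. Thinned to 3000 UMIs, log2 ratios that turned were Hsf1 -0.65, Sparc 0.58, Acsl3 0.10 and Csf3r -0.14. At a C1q sum of 0.6%, log2 ratios that turned were Acsl3 0.82 and Pcp2 0.070. At a threshold of 0.1%, log2 ratios that turned were Spp1 0.26 and Vcam1 0.38. At a threshold of 0.4%, log2 ratios that turned were H2-DMb2 -0.47 and Thbs1 -0.038. As a mean of per-cell CPM, log2 ratios that turned were Sparc 0.39 and Vcam1 0.65. At 5% mitochondrial UMIs, that of Gpx3 was 0.047. Against all other cells of the gate, that of Igf1 was -0.20. With rod markers under 0.2%, that of Sag was 0.29. Without doublets, that of Sparc was 0.063. Without its highest cytokine-high cell, that of Apoc1 was -0.20. With Malat1 at 0.5% or more, log2 ratios that turned were Igf1 -0.28 and Top2a 0.058. No value could be given in 32 cases with counts at the floor. No paired analysis was possible because both groups of cells come from 1 library of pooled mice. Depth limits the genes under 20 CPM, where 1 UMI is 0.840 CPM in cytokine-high cells.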
